A study of Mus musculus with 419 samples.

Results

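The replication-dependent histone genes were followed in single mouse embryonic stem cells. The members are the genes of the GENCODE vM21 annotation that code for protein and whose symbol starts with Hist1h, Hist2h, Hist3h or Hist4, with pseudogenes left out. The rule found 67 genes, of which 65 have a row in the tables, out of 48253 genes with a row. The series holds 419 cells of the female hybrid line F1-21.6, with 1 chromosome set from strain 129Sv and 1 from Cast/EiJ. The cells are described as in G1 phase, were grown on Laminin-511 without feeder cells in serum medium with leukemia inhibitory factor, and carry no treatment that the labels name. RamDA-seq, which reads total RNA along the whole transcript, was run on every cell, and a value was deposited per transcript for the 129 and for the CAST allele. Since no separate cultures are named, all cells count as 1 sample, and no test was run over cells. Spreads are given over the 5 sequencing lanes of the libraries and may be technical.

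Replication-dependent histone genes supply the bulk of the core histones H2A, H2B, H3 and H4 and of the linker histone H1 that package newly made DNA. They lie in clusters, have no introns in their classical form, and most of their transcripts end in a conserved stem-loop instead of a poly(A) tail. The stem-loop binding protein Slbp holds that end, and the coactivator Npat, acting in the histone locus body, raises their transcription as cells enter S phase. Their transcripts are degraded when DNA synthesis stops, whereas replacement variants such as H2afz and H3f3a are made outside S phase too and end in poly(A) tails. A method that reads only poly(A) tails therefore misses most of these transcripts, and one that reads total RNA can record them.

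Of the 67 genes, 54 lie in the Hist1 cluster on chromosome 13, 10 in the Hist2 cluster on chromosome 3, 2 in Hist3 on chromosome 11, and 1, Hist4h4, on chromosome 6. The Hist1 genes form 2 blocks in mm10 coordinates, with 23 genes at chr13:21715763-22043676 and 31 at chr13:23531050-23934851. The Hist2 genes lie at chr3:96219865-96270132. By protein, 6 genes code for H1, 18 for H2A, 18 for H2B, 12 for H3 and 13 for H4. Hist1h2bm and Hist1h2bh are the members with no row.

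The 3′ stem-loop is the feature that sets this family apart from poly(A) transcripts, so 1 example of each form found is shown. Transcripts were searched for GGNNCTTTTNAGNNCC, in the sense direction, with the bases of the stem able to pair. It was found in rows of 42 members and in 5 of 21884 other protein-coding genes (0.0228%). Rows of 11 members hold only the coding part and cannot contain it, and 12 more have longer rows without a match, among them those of Hist1h1a, Hist1h1b and Hist1h2bc. Some of these are short, such as that of Hist1h2af at 399 bases. Whether they reach the place of a stem-loop was not checked. The capitals mark the stem-loop of GENCODE vM21 transcripts:
Hist1h2bj: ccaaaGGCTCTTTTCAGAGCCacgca
Hist1h2bk: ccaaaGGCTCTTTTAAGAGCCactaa
Hist2h2ac: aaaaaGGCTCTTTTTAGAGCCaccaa
Hist1h4d: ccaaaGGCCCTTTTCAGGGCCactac
Hist1h4i: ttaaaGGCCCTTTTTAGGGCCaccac
Hist1h4b: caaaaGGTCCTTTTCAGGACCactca
The form of Hist1h2bj was present in 24 members and that of Hist1h2bk in 6, while Hist2h2ac had a form of its own. The other forms belonged to H4 genes: that of Hist1h4d was shared by 7 members, that of Hist1h4i by 2 and that of Hist1h4b by 2. The Hist1h2bj stretch lies at chr13:22043633-22043658 on the plus strand and that of Hist1h4d at chr13:23581945-23581970 on the plus strand, in the untranslated 3′ end of single-exon genes. The annotated row of Hist1h1c runs on for 840 bases past its loop, and that of Hist1h4d for 770.

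Promoters are shown for Hist1h1a, Hist1h1b, Hist1h1d and Hist2h2bb, the 4 genes whose levels moved together most closely from cell to cell. Each stretch runs from 250 bases before to 50 bases after the RefSeq start (GRCm38.p6). Motifs were searched on both strands: the TATA box TATAAA, the CCAAT box CCAAT, the octamer ATTTGCAT bound by Pou2f1 (Oct1), and the AC box AAACACA of H1 genes; no motif contains another, and capitals mark every match or its reverse complement:
Hist1h1a: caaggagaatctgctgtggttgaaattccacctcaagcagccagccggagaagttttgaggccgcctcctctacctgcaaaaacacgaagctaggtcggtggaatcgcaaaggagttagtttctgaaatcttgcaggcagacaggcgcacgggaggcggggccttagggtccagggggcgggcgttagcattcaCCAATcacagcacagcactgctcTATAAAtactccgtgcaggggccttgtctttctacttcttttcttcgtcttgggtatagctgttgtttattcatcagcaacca
Hist1h1b: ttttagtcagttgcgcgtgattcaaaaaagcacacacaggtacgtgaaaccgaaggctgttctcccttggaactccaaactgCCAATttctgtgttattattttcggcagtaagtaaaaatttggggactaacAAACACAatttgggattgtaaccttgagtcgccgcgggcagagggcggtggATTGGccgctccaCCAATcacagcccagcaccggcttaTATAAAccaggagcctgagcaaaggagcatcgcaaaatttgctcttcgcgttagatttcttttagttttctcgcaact
Hist1h1d: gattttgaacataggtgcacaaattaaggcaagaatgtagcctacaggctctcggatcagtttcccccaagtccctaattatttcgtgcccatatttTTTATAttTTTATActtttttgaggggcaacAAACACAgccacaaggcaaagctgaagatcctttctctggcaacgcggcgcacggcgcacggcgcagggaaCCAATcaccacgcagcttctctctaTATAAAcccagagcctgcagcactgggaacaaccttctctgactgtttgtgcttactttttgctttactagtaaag
Hist2h2bb: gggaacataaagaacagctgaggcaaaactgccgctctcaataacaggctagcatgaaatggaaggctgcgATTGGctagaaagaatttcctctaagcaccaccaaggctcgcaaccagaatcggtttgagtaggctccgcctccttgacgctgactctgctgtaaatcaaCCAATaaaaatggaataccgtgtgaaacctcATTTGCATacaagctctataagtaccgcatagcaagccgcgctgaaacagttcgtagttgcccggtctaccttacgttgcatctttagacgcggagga
They lie at chr13:23763418-23763717 on the plus strand (Hist1h1a), chr13:21780576-21780875 on the minus strand (Hist1h1b), chr13:23554782-23555081 on the plus strand (Hist1h1d) and chr3:96269450-96269749 on the plus strand (Hist2h2bb). The TATA box starts 33, 28 and 26 bases before the start in Hist1h1a, Hist1h1b and Hist1h1d. Hist2h2bb has no TATAAA in the window and holds the octamer. Of the 62 members matched to a RefSeq promoter, 53 held a CCAAT box against 37.4% of all 32851 promoters. All 50 matched H1, H2A, H2B and H3 genes held it, and 3 of the 12 H4 genes did. The TATA box was present in 35 members against 13.6% of all promoters. The octamer occurred in 13 members, 7 H2A and 6 H2B genes, against 1.74% of all promoters. Windows of neighbouring H2A and H2B genes on opposite strands can overlap, so a motif site may count for both genes. The AC box was present in 5 of the 6 H1 genes and 9 members in all, against 7.18%; Hist1h1a is the H1 gene without it.

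The deposited values are scaled and rounded allele counts, so the depth in reads is unknown. Totals over both alleles ranged from 698363 to 1477656 per cell, with a median of 925852. Embryonic stem cell markers were present: Pou5f1 and Zfp42 were above 0 in 100.0% of cells, Sox2 in 97.9%. In 20 of the 419 cells, however, the summed level of 10 such markers was under 615.5, which is 20% of the median cell's 3078. These 20 cells, spread over all 5 lanes, had a median histone score of 0.408 (the mean over detected histone genes of the level relative to the gene's own mean), and 2 of them were among the 42 cells with the highest scores and 7 among the 42 with the lowest. The counts and sums that rest on these groups are also given without those cells. All 95 index pairs recurred in several lanes, never in the same lane, and no cells had identical values.

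All 65 measured histone genes were above 0 in at least 1 cell, and 41 were above 0 in over 50% of cells. The share of other genes past these limits was not counted, so the numbers describe the members only. Detection was set at a mean of at least 5 units per cell and a value above 0 in at least 10% of cells. It was reached by 17 of the 65 members, against 21.7% of all other genes with a row. These were 5 of 6 H1 genes, 2 of 18 H2A genes, 8 of 18 H2B genes, 2 of 13 H4 genes and none of the 12 H3 genes. Without the 20 cells of low stem cell markers 18 reached it. The nearest to the limit were Hist1h2bg at a mean of 5.29 and Hist1h4c at 6.14 above it, and Hist1h2bf at 4.97, Hist1h3a at 4.85 and Hist1h2ac at 4.57 below it.

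The summed level of all members ran from 46 in the lowest cell through a median of 260 to 1283 in the highest, with a mean of 331 ± 29.4 (SD, n = 5 lanes). That sum is 0.0358% of all values in the tables. The 10th percentile of cells was 101.8 and the 90th 658.6. By class, the mean sum per cell was 80.4 for H1, 49.6 for H2A, 127 for H2B, 31.7 for H3 and 42.5 for H4. The H3 genes were therefore recorded as a class although none passed the limit alone: their sum ranged from 1 to 131 with a median of 25.

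Means per gene are given first as deposited, without regard to length. Among linker histones, Hist1h1b (H1.5) had 0 in the lowest cell, a median of 16.0 and 116 in the highest, and a mean of 23.0 ± 3.64 (SD, n = 5 lanes). It was above 0 in 94.3% of cells (exact binomial 95% interval 91.6% to 96.3%, which covers counting error only). Hist1h1d (H1.3) ran from 0 through a median of 15.0 and an upper quartile of 28.0, with a mean of 19.6 ± 3.19. Hist1h1a (H1.1) ran from 0 through 14.0 to 81, with a mean of 18.7 ± 2.70. Hist1h1c (H1.2) ran from 0 through 9.00 to 77, with a mean of 11.1 ± 1.28, and was above 0 in 97.1% of cells. These 4 genes were read in nearly every cell. Hist1h1e (H1.4) had a mean of 7.74 ± 1.16. Hist1h1t, the H1 form of male germ cells, was above 0 in 7.40% of cells, with a mean of 0.332.

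Among H2B genes, Hist2h2bb had a mean of 31.2 ± 4.38 (SD, n = 5 lanes), with 0 in the lowest cell, a median of 24.0 and 114 in the highest. Its row shares exons with the predicted gene Gm42743, so its reads may come from either. Hist1h2bn ran from 0 through 16.0 to 116, with a mean of 23.0 ± 2.84. Hist1h2br had a mean of 12.02 ± 1.20, Hist1h2bl of 11.5 ± 1.25, Hist1h2bk of 11.3 ± 1.83 and Hist1h2bj of 10.2 ± 0.759. Each was above 0 in most cells. Hist1h2bc had a mean of 8.80 ± 0.681. Hist1h2ba, the testis form of H2B, was above 0 in 7.88% of cells, with a mean of 0.274.

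For H2A, Hist1h2ak had a mean of 9.45 ± 1.19 and Hist2h2aa2 of 6.68 ± 0.553 (SD, n = 5 lanes). The values of Hist2h2aa2 ran from 0 through a median of 4.00 to 41. Hist1h2aa, the germ line form, was above 0 in 10.5% of cells, with a mean of 0.444. For H4, Hist1h4d had a mean of 10.0 ± 0.779 and Hist1h4c of 6.14 ± 0.590. All 3 germ line forms were thus near 0, while the somatic H1 genes were in most cells.

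Levels of different genes can be set side by side only per length. Hist2h2bb stood at 81.8 units per kb of row, Hist1h2bn at 60.3, Hist1h1b at 30.97, Hist1h2bl at 30.2 and Hist1h1a at 25.2, while the median detected gene was at 12.6. In Hist2h2bb both alleles hold nearly the same value in every cell, and how reads that fit both alleles were counted is not known. The levels of such genes may therefore not compare with the rest, and their place at the detection limit is equally uncertain. Among replacement variants, H2afz stood at 369 units per kb, H3f3a at 310, H3f3b at 101.8, H2afx at 31.7 and the linker form H1f0 at 3.78. Hist1h1d was at 2.64 per kb, but its annotated row of 7425 bases starts 1770 bases before the RefSeq start and runs 4884 bases past the stem-loop, so its value per length is low by construction.

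**Figure D1:**
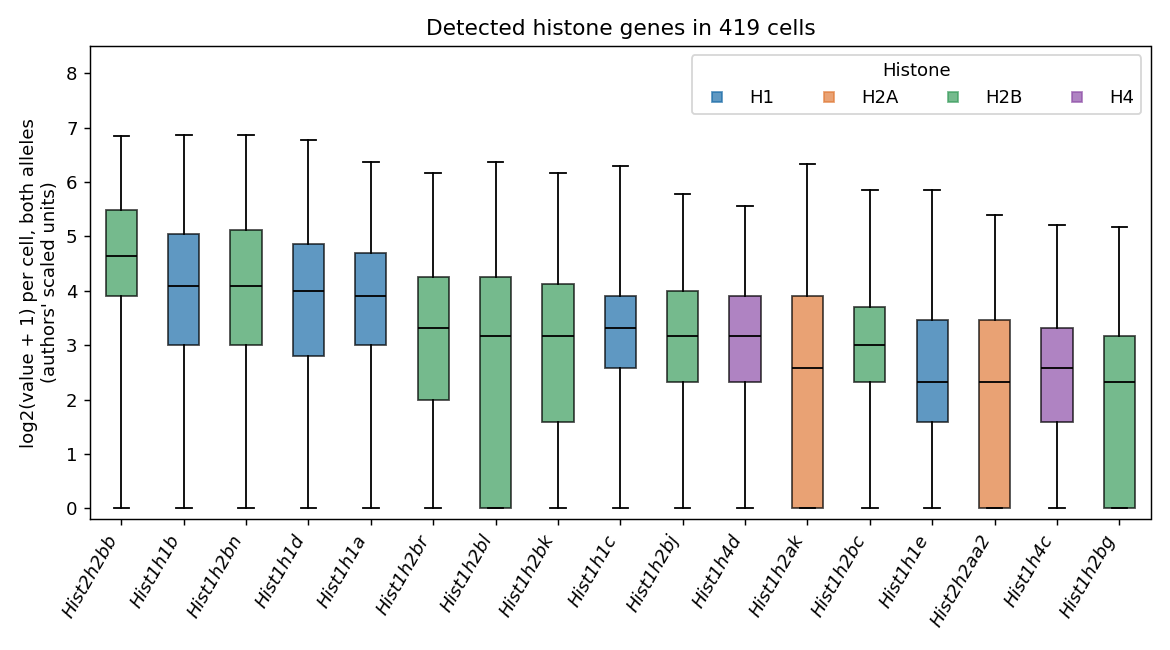
Levels of the 17 detected histone genes in 419 cells, as log2(value + 1) of the authors' scaled units over both alleles, ordered by mean and not corrected for length. Boxes span the quartiles with the median as a line, whiskers reach the lowest and the highest cell, and colours give the histone class; the means run from 31.2 for Hist2h2bb to 5.29 for Hist1h2bg, and every gene is at 0 in at least 1 cell.

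Near-identical copies limit what a value of a single gene means. Of the 65 measured members, 52 share more than 20% of their 50-base words with another gene, and 16 share more than 80%. Among the detected genes, 6 share at most 20%: Hist1h1a and Hist1h1b share 0%, Hist1h1d 2.25%, Hist1h1c 8.54%, Hist1h4d 10.2% and Hist1h4c 19.6%. Some results below are given for these 6 apart, but the score used below rests on all detected genes. The coding sequences of Hist2h2aa1 and Hist2h2aa2 are identical over their whole length, and so are those of Hist1h2bq and Hist1h2br. The coding sequences of Hist1h2bn and Hist1h2bk differ at 9 of 381 bases. Their first 60 bases are shown because they hold 4 of these differences, in capitals in the second sequence:
Hist1h2bn: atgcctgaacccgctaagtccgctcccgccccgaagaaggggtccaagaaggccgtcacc
Hist1h2bk: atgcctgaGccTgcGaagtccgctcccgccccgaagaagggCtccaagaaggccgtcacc
These 60 bases differ between both genes, but 86.4% of the 50-base words of Hist1h2bn and 74.2% of those of Hist1h2bk occur in another gene. A read from an identical stretch can be placed in more than one gene, and no source used here says how the authors divided such reads. Exons of 24 members also overlap another gene. The processed pseudogene Hist1h2al, left out by the rule, had a mean of 13.7 and was above 0 in 87.8% of cells.

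Most histone genes varied together from cell to cell. A score was made for each cell as the mean over the 17 detected genes of value divided by the gene's mean, after cell totals were scaled. It ran from 0.085 through a median of 0.817 to 3.88. A score of at least 2 was reached by 43 cells (10.3%, exact binomial 95% interval 7.53% to 13.6%), of at least 3 by 7 cells (1.67%, 0.674% to 3.41%), and 122 cells (29.1%) were at or under 0.5. The scores form a continuous range with no gap: 33 cells lay between 1.8 and 2.2, and the 42nd and 43rd highest cells were at 2.02 and 2.01. When the 20 cells of low stem cell markers were left out, 40 cells reached a score of 2. The 42 highest cells, used below as the high cells, are therefore the top of a range, not a cell type. They came from all lanes, with 7, 11, 10, 8 and 6 from lanes 2 to 6.

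In every high cell at least 14 of the 17 genes were above their median over cells, and in every one of the 42 lowest cells at most 2 were. The score is the mean of these same genes, so such counts at its ends are partly built in and describe the groups only. All 17 were above their median in 23 cells, and none was in 15. The summed level of all members ran from 600 to 1283 in the high cells and from 46 to 734 in the others. The ranges of the sum overlap. The score hardly followed library richness, with a Spearman rho over 419 cells of 0.014 with the number of rows above 0 and 0.034 with the total.

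**Figure D2:**
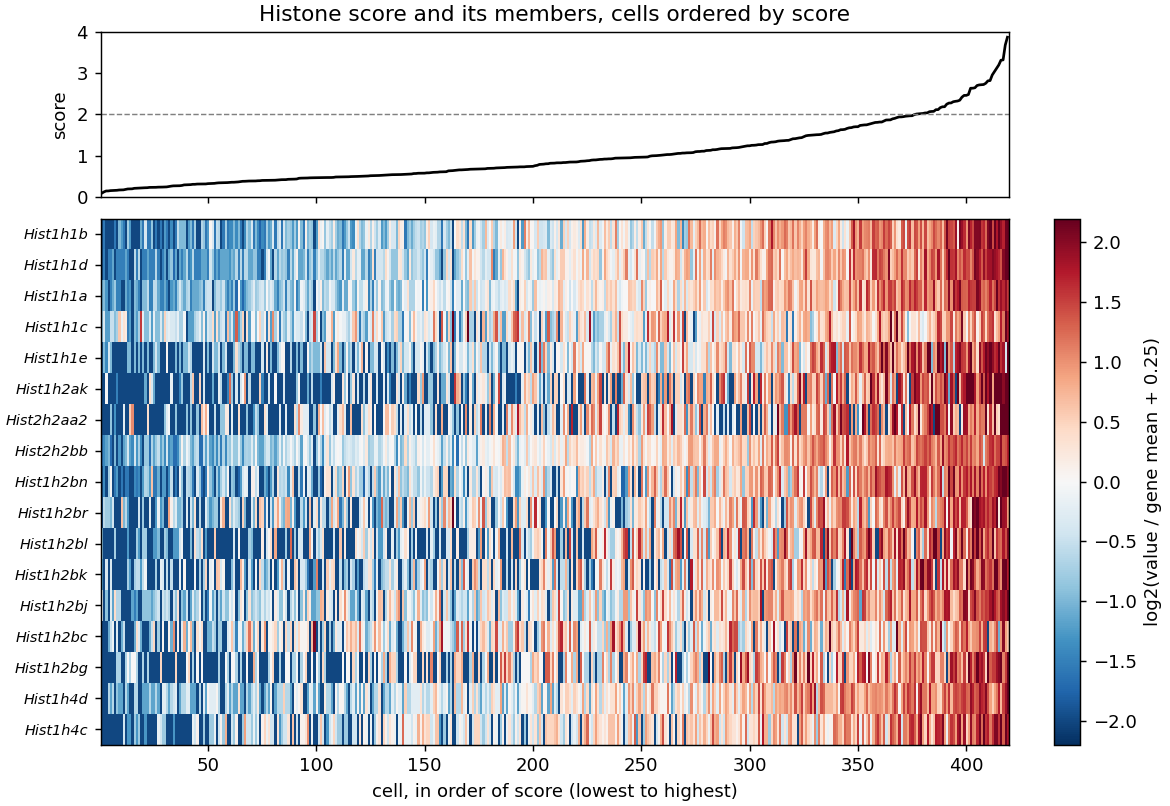
Top, the histone score of each of 419 cells in order, with a dashed line at 2. Bottom, each detected gene's value in the same cells as log2(value / gene mean + 0.25). The 43 cells at or above 2 are high in nearly every gene, and Hist1h1c and Hist1h2bc follow the order least. The score is the mean of these genes, so part of this pattern is built in.

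Since the score uses these genes, each gene was read in cells ranked by the 16 others. The members below the detection limit were read by the full score. In the 42 cells then highest, 51 of all 65 measured members had a mean at least 2-fold above the other cells, a fold that 0.0954% of other detected genes reached against the full score. Of the 65, 48 lie below the detection limit, which those other genes all passed. Leaving out the 20 cells of low stem cell markers gave 49 of 65. The values of detected genes are given 1 by 1, since Hist1h2bg, at 13.0 in the high cells and 4.42 in the others, passed the limit of 5 only through the high cells. Hist1h1b had a mean of 64.6 in those cells and 18.3 in the others, 3.52-fold, with 2.59 to 4.15-fold over the lanes. Its rho with the score of the others was 0.84. Hist1h1d had 53.0 against 15.9, 3.33-fold, with a rho of 0.87. Hist1h1a had 46.5 against 15.6, 2.99-fold, with a rho of 0.87. Hist2h2bb had 69.6 against 26.9, 2.59-fold, with a rho of 0.87. Hist1h2ak had the highest fold, 4.11, and Hist1h2bc the lowest, 1.75, with a rho of 0.40. Hist1h1c, at 1.92-fold and a rho of 0.49, was the other detected gene under 2-fold. The folds of the 17 ran from 1.76 to 3.77 without those 20 cells.

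The 48 members below the detection limit took no part in the score and were read next. All but 7 share more than 20% of their 50-base words with another gene, in some cases a gene of the score. Reads of genes in the score may therefore be placed in their rows, so this is not a separate reading. A rho of at least 0.2 with the score was reached by 36 of 48, against 2.12% of other detected genes, and 36 were at least 2-fold higher in the high cells. The other genes all passed the detection limit, so the sets differ in level. The numbers for the 48 members were 37 and 34 when the 20 cells were left out. The limit for rho was chosen after the data were seen. Hist2h2ac reached a rho of 0.65 and 3.47-fold, Hist1h3a 0.63 and 3.02-fold, Hist1h3b 0.61 and 3.38-fold, and Hist1h2ac 0.60 and 3.44-fold. Hist2h3c1 (rho -0.09), Hist1h2bp (-0.08), Hist2h2be (-0.06) and Hist1h2bq (-0.05) did not follow the score. Hist2h2be shares no sequence and has no stem-loop in its row; its mean was 0.0935 in the high cells and 0.469 in the others. The members with unshared sequence below the limit, 7 in number, had a summed mean of 29.8 in the high cells and 10.6 in the others, 2.82-fold (2.73-fold with the 20 cells left out).

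Reads divided among copies of a class stay in its sum, but those placed in pseudogenes or in other overlapping genes do not: exons of Hist2h2bb overlap Gm42743, those of Hist2h3c1 and Hist2h2aa1 overlap Gm20634, and those of Hist3h2a overlap Trim17, among others. Each class was read in cells ranked by the detected genes of the other classes. The H3 sum, with no gene in any score, had a mean of 74.4 in the high cells and 26.8 in the others, 2.78-fold, with 2.27 to 3.10-fold over the lanes and a rho of 0.88. The H1 sum was 3.02-fold higher (201.8 against 66.8, rho 0.91) and the H2A sum 3.06-fold higher (126 against 41.1, rho 0.91). The H2B sum was 2.70-fold higher (292.2 against 108.4, rho 0.92) and the H4 sum 2.67-fold higher (97.1 against 36.3, rho 0.90). All 5 classes were higher in every lane. With the 20 cells left out the folds were 3.001 for H1, 2.96 for H2A, 2.61 for H2B, 2.74 for H3 and 2.56 for H4. Their ranges still overlapped between groups: the H1 sum ran from 101 to 344 in the high cells and from 0 to 266 in the others. A small part of the sequence is common to classes, since exons of the H1 gene Hist1h1e and the H2B gene Hist1h2be overlap.

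The clusters on different chromosomes moved together as well. In cells ranked by the 15 detected Hist1 genes, the sum of the unshared Hist2h2be, Hist2h4 and Hist4h4 was 9.07 in the high cells and 4.35 in the others, 2.09-fold, with a rho of 0.51. Of these 3 genes, 2 were higher in those cells, and the folds of single genes ran from 0.199 to 2.78. In cells ranked by the detected Hist2 genes, the sum of the 6 unshared Hist1 genes was 185.2 against 77.7, 2.39-fold, with a rho of 0.76. The folds of the 2 sums were 1.99 and 2.38 with the 20 cells left out.

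Pairs of detected genes had a median rho of 0.48 over 136 pairs, from 0.19 to 0.81, over 419 cells that share library preparation and scaling. The closest pairs were Hist1h1a with Hist1h1b at 0.81 (0.79 to 0.84 over lanes), Hist1h1a with Hist1h1d at 0.81 and Hist1h1a with Hist2h2bb at 0.81. Hist1h1a and Hist1h1b share no sequence and lie in different blocks of chromosome 13, and Hist2h2bb lies on chromosome 3. Pairs of the 6 unshared genes had a median of 0.64 (15 pairs). The median was 0.46 within a Hist1 block (49 pairs), 0.51 across the blocks (56 pairs) and 0.46 between Hist1 and Hist2 genes (30 pairs). Hist1h2bn and Hist1h2bk, nearly identical in sequence, had a rho of 0.40. Hist1h2bc gave the lowest pair, 0.19 with Hist1h2bk. The median was 0.49 without the 20 cells of low stem cell markers.

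**Figure D3:**
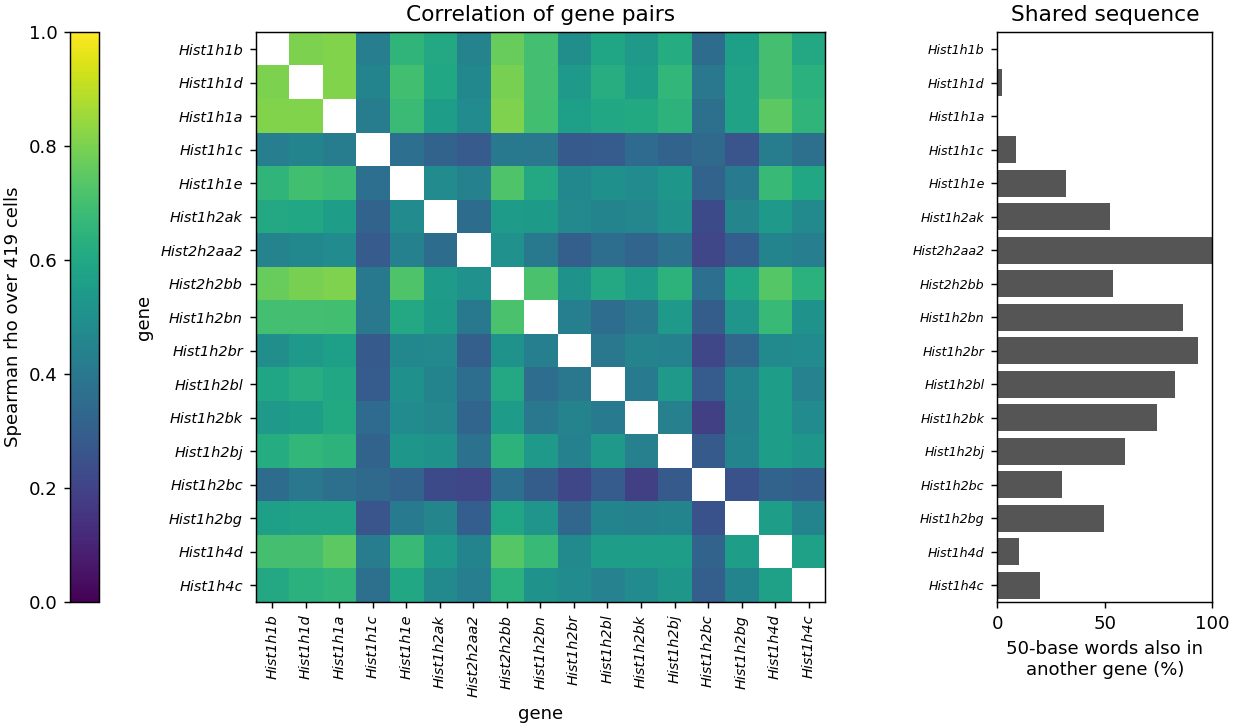
Left, Spearman rho of each pair of the 17 detected histone genes over 419 cells (white squares on the diagonal are left out), genes grouped by class. Right, the percent of each gene's 50-base words that occur in another gene; Hist1h1a, Hist1h1b and Hist1h1d, with 0% to 2.25% shared, form the block of highest rho, at 0.80 to 0.81.

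Because histone genes are induced at entry into S phase, other genes of the cell cycle were set beside the score, from lists that are given by count and median. Of 31 genes of DNA replication and S phase, 18 had a rho of at least 0.2, against 2.12% of all detected genes, and 0 had a rho of -0.2 or less. The list's median was 0.22, while that of all detected genes was -0.00344. Between the high and the other cells the differences in level were small: the list's median fold was 1.05, and the median of all detected genes 0.985. Pcna, the sliding clamp of the replication fork, had the highest rho of the list, 0.45, with a mean of 266 in the high cells, 234 in the others and 177 in the 42 lowest cells, 1.13-fold. The helicase subunit Mcm5 had a rho of 0.33 and was 1.17-fold higher, and the flap endonuclease Fen1 a rho of 0.31 and 1.17-fold. Dtl, which directs the degradation of Cdt1 in S phase, was the lowest, at 0.734-fold and a rho of -0.13, and Gins1 stood at 0.907-fold. The list's summed level had a mean of 6077 in the high cells, 5775 in the others and 4697 in the low cells. It ran from 4494 to 7976 in the high cells and from 713 to 7015 in the low cells, so the groups overlapped. With those 20 cells left out, 13 of 31 genes had a rho of at least 0.2, with a median of 0.19.

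Genes of G2 and mitosis lay on the other side. Of 20, 9 had a rho of -0.2 or less, against 2.74% of all detected genes, and 1, Top2a, a rho of at least 0.2. The median was -0.16. The mitotic kinase Plk1 had a rho of -0.43, with a mean of 109 in the high cells, 146 in the others and 177 in the low cells. Aurka stood at -0.34, the spindle gene Hmmr at -0.32, and Cenpe, the mitotic kinesin, at 0.793-fold. Top2a, the topoisomerase that untangles replicated DNA, had a rho of 0.26 and was 1.27-fold higher, and Aurkb was 1.15-fold higher. Without the 20 cells, 10 of 20 had a rho of -0.2 or less. Whether the high cells had begun DNA synthesis was not measured, and the part of the cell cycle in their histone levels was not tested.

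Among G1/S regulators, 2 of 14 had a rho of at least 0.2, the cyclin gene Ccne1 (0.33) and its kinase partner Cdk2 (0.27). The kinase inhibitor Cdkn1a stood at -0.26, with 14.1 in the high cells and 23.9 in the others. By fold, Rbl1 (1.38) and Rb1 (1.32), both of the retinoblastoma family, were highest, and Ccnd2 (0.476), whose median was 0, and Cdkn1a (0.590) lowest. The counts past a rho of 0.2 in either direction, 2 and 1, did not change when the 20 cells were left out.

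Of 14 histone chaperones, 5 had a rho of at least 0.2. Chaf1a and Chaf1b, subunits of the assembly factor that loads histones behind the fork, stood at 0.45 and 0.31 (1.12-fold each), Asf1b at 0.31, Rbbp4 at 0.21 and Nasp, which carries soluble histones, at 0.21. Asf1a, the other Asf1 gene, was at 0.923-fold with a rho of -0.01, and Rbbp7 at 0.977-fold. Only 3 of 14 reached 0.2 without the 20 cells.

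By rho, the list of factors that process histone transcripts moved little with the score as a whole, with a median of 0.0585. Of the 18 measured genes of that list 1, Casp8ap2, a part of the histone locus body, had a rho of at least 0.2 (0.21), and none did without the 20 cells. Slbp stood at a rho of 0.19 with 140 in the high cells and 142.1 in the others, and Npat at 0.18 with 86.9 and 82.5. Coil (1.11-fold) and Upf1 (1.097-fold) were highest by fold, and the zinc finger gene Zfp473 (0.661-fold) and Cstf2t (0.851-fold) lowest. Zfp473 had 37.9 in the high cells and 57.3 in the others, and was lower in all 5 lanes. The sum over the list had a mean of 1491 in the high cells, 1485 in the others and 1371 in the low cells. Of 9 transcription factors known to act on histone promoters, 0 passed a rho of 0.2 in either direction. Pou2f1 stood at 0.899-fold, and Nfya and Nfyb, subunits of the CCAAT-binding factor, at 0.849-fold and 0.883-fold, the lowest of the list, while Npat (1.05-fold) and Tbp (0.981-fold) were the highest. The count was 0 of 9 with the 20 cells left out too.

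Most replacement variants differed little between the high and the other cells. Of 10, 1 had a rho of at least 0.2: H3f3b, which codes for H3.3, at 0.31 and 1.24-fold, and 1 of 10 did with the 20 cells left out. H2afz had 265 in the high cells and 284 in the others (rho 0.0026), H3f3a 273 and 268, and H2afx, which has both kinds of 3′ end, 44.4 and 43.8. H2afy2 was at 1.16-fold, the linker variant H1f0 at 0.880-fold and Cenpa, the centromeric H3, at 0.894-fold. The pseudogene row Hist1h2al, in contrast, was 3.02-fold higher in the high cells with a rho of 0.78.

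**Figure D4:**
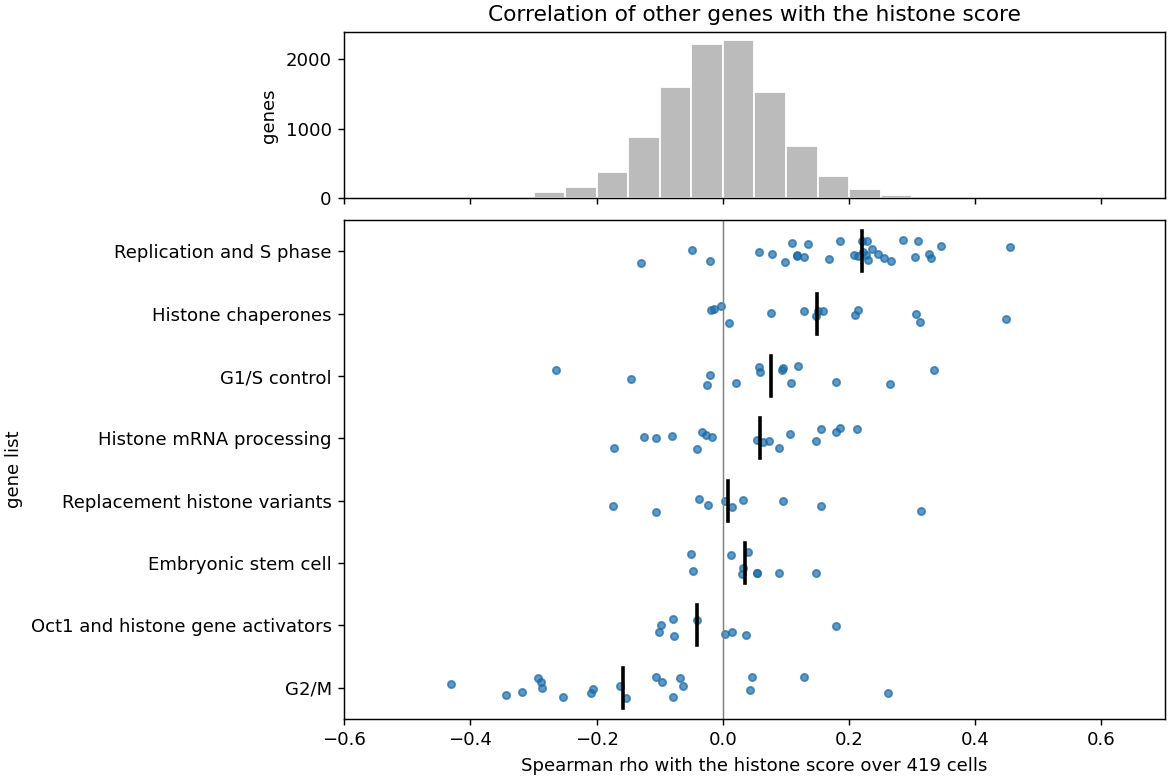
Top, the number of detected genes outside the histone members at each Spearman rho with the histone score over 419 cells. Bottom, each gene of 8 lists (points) and the list's median (line); replication genes centre on 0.22 and genes of G2 and mitosis on -0.16, with Top2a to the right.

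Of 10478 detected genes outside the members, 10 were at least 2-fold higher in the high cells and 53 (0.506%) at most 0.5-fold. Without the 20 cells the numbers were 14 and 31. With a mean of at least 20, Kpna2, an importin that carries proteins into the nucleus, had the highest rho of 6312 genes, 0.59 (0.50 to 0.64 over lanes; 0.59 without the 20 cells). It had a mean of 221 in the high cells, 124 in the others and 102.4 in the low cells, 1.77-fold. Pcna, Chaf1a, the RIKEN gene B830012L14Rik (0.42) and the ubiquitin ligase Znrf3 (0.41) followed. By fold, Nes, the intermediate filament nestin, was the highest at 2.23, but from 1.09 to 10.0 over lanes. Others among the highest were AY036118 (1.79), which was higher in 2 lanes and lower in 3, Card10 (1.60), Ccn1 (1.55), Pdzd2 (1.503), 1810026B05Rik (1.49) and Igfbp3 (1.48). Ccn1, Pdzd2 and 1810026B05Rik were higher in all 5 lanes, but Card10 and Igfbp3 in 3 and lower in 2, with 0.653 to 4.75-fold over lanes for Igfbp3. Leaving out the 20 cells gave 2.74-fold for Nes, 1.75 for Kpna2, 1.73 for AY036118, 1.56 for Ccn1, 1.39 for Card10, 1.36 for 1810026B05Rik, 1.31 for Pdzd2 and 1.07 for Igfbp3.

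The lowest folds mostly came from few cells. For Acta2 (0.0587), Gm44739 (0.0697), H19 (0.319), Gm38947 (0.348), Tmem72 (0.362), Gm16344 (0.381) and Gm44660 (0.478) a few extreme cells carry the mean of the others: the highest cell of Tmem72 held 229177 against a median of 324. When the 20 cells were left out, Acta2 (0.136), Gm44739 (0.256) and H19 (0.411) stayed under 0.5-fold, while Gm38947 stood at 0.771, Tmem72 at 0.847, Gm44660 at 0.852 and Gm16344 at 0.880. Ephb3 (0.484), Dnajb14 (0.496) and Abca1 (0.506) had lower medians too, with 9.82, 16.6 and 19.8 in the high cells against 19.0, 28.2 and 28.3, and were lower in all 5 lanes; they stood at 0.492, 0.484 and 0.511 with the 20 cells left out. The lowest rho, looked at after the data were seen, belonged to the zinc finger gene Klf10 (-0.46), Pcf11 (-0.43), a factor of transcript 3′ end cleavage, Plk1, Dnajb14 (-0.40) and Lgalsl (-0.38).

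Some markers that other cell types also use were read in most cells: Tfap2c, on the trophectoderm list, had a mean of 56.8 and was above 0 in 94.3% of cells, and Tubb3, on the neural list, a mean of 27.7 and 96.7%. Fibroblast markers, 7 genes of which Col1a1 alone was detected, summed to 0 to 131 in the high cells and 0 to 2712 in the low cells, with medians of 6.76 and 4.11. Trophectoderm markers summed to 0 to 186 and 3.57 to 982. Markers of 2-cell-like cells had a median of 0 in both groups and reached 193 and 3304. Primitive endoderm markers summed to 0 to 93.0 and 0 to 147, neural markers to 6.84 to 649 and 5.17 to 888, mesendoderm markers to 0 to 33.5 and 0 to 19.5, and male germ line markers, of which Tnp1 was at 0 in all cells, to 2.01 to 241 and 0 to 74.4. Stem cell markers summed to 462 to 4440 and 48.1 to 5060. The part of these few cells in the low group's values was not tested beyond leaving out the 20 cells above.

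Allele shares could be read for 13 of the 17 detected genes. In Hist1h1d, Hist1h2bg, Hist1h4d and Hist2h2bb the 129 and CAST tables hold nearly the same value in every cell, so they carry no allele information. Over the 13 genes the pooled 129 share was 41.7% ± 0.858 (SD, n = 5 lanes), with 40.6% to 42.4% over lanes. The median of 9698 other genes was 50.1%. A share of 40% or less was found in 5 of 13, against 10.4% of other genes, and of 60% or more in 0.

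The lowest shares belonged to genes with shared sequence. Hist2h2aa2 stood at 10.4% ± 2.39 (SD, n = 5 lanes) with 2506 units from CAST, and Hist1h2ak at 18.8% ± 0.491. Hist1h2bn stood at 31.8% ± 1.85, Hist1h2bc at 36.8% ± 1.26 and Hist1h2br at 36.8% ± 3.33. All 5 share more than 20% of their sequence with other genes, so their shares are uncertain. The 5 highest were Hist1h2bj at 56.5% ± 1.27, Hist1h4c at 56.4% ± 2.40, Hist1h2bk at 54.6% ± 4.55, Hist1h1e at 51.8% ± 3.40 and Hist1h1b at 49.1% ± 4.20, which is close to Hist1h2bl at 49.1% ± 5.55.

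The unshared genes lay closer to equality. Hist1h1a stood at 40.8% ± 4.17, Hist1h1c at 46.3% ± 4.11, Hist1h1b at 49.1% and Hist1h4c at 56.4%, with a pooled share of 46.7%. The shares of Hist1h1b and Hist1h1c differ from 50% by less than the SD over lanes. That of Hist1h1a was under 50% in all 5 lanes (34.3% to 44.9%), and that of Hist1h4c over 50% in all 5 (53.6% to 59.0%). Of the 34 members below the detection limit with allele information, 10 were at 40% or less and 9 at 60% or more. Among the other genes, which all passed that limit, the percentages were 10.4% and 8.1%. The extremes were Hist2h2aa1 at 7.75% and Hist1h4m at 89.6%, both with over 80% of their sequence shared.

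**Figure D5:**
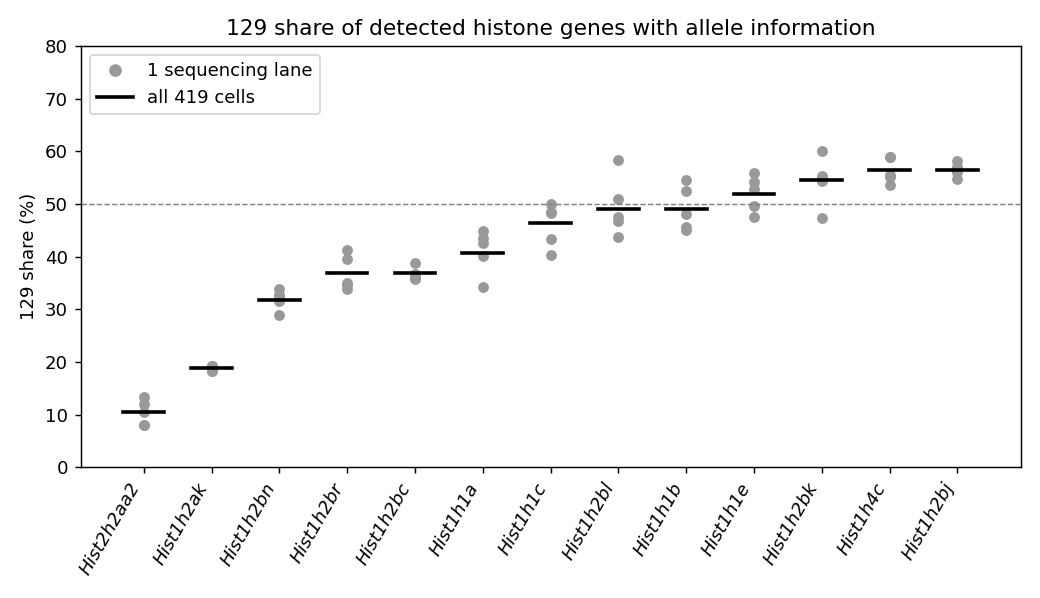
The 129 share of the 13 detected histone genes with allele information, in percent of the values from both alleles. Grey points are the 5 lanes, black lines all 419 cells and the dashed line 50%; the lowest 5 genes, from Hist2h2aa2 at 10.4% to Hist1h2br and Hist1h2bc at 36.8%, all share sequence with other genes.

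The alleles of a gene can vary together from cell to cell (shared noise: each allele is divided by its mean, the products are averaged over cells, and 1 is subtracted) or apart (intrinsic noise: the averaged squared difference of the same values, divided by 2). Both could be read for 6 members, whose alleles each averaged at least 5. Of these, Hist1h2bl, Hist1h2bk and Hist1h1c had an allele with a mean under 5 outside the high cells, so no count over the 6 is given. Among 2861 other genes with a mean of 5 to 15 per allele, shared noise was above 0 in 38.0%. It had a median of -0.0532 and a 90th percentile of 0.532, and intrinsic noise had a median of 0.861. Hist1h1b had shared noise of 0.485 and intrinsic noise of 0.804, and Hist1h1a 0.394 and 0.560. Among the other genes the shared noise of Hist1h1b stood at percentile 89.1 and that of Hist1h1a at 87.6, both high but under the 90th. Hist1h1c had shared noise of 0.117 and intrinsic noise of 1.18, the least shared of the 6.

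The alleles of Hist1h1a and Hist1h1b each followed the score, of which both genes are a part. The rho with the score was 0.65 for the 129 allele of Hist1h1b and 0.66 for its CAST allele, and 0.65 and 0.72 for Hist1h1a. The alleles of 1 gene followed each other less: the rho between them was 0.31 for Hist1h1b (0.21 to 0.37 over lanes), 0.28 for Hist1h1a (0.03 to 0.48) and -0.05 for Hist1h1c (-0.11 to 0.02). For comparison, the median of the 2861 genes was -0.13. Hist1h2bn, with shared sequence, stood at 0.60. The 129 share of Hist1h1a was 39.6% in the high cells and 41.2% in the others, and that of Hist1h1b 43.7% and 51.3%. In Hist1h1b the 129 allele had a mean of 28.6 in the high cells and 9.37 in the others, and the CAST allele 36.8 and 8.89. Each of these genes is part of the score that picked the high cells, so a higher mean there is partly built in. The share of Hist1h1c stood on the other side, at 58.7% in the high cells and 43.6% in the others, and its alleles followed the score less, with a rho of 0.34 for 129 and 0.25 for CAST. With the 20 cells left out the shares in high and other cells were 38.8% and 41.6% for Hist1h1a, 43.1% and 50.9% for Hist1h1b, and 58.0% and 44.2% for Hist1h1c.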

How the data were processed

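Values for 419 cells came from 2 tables, 1 per allele, deposited with 117762 transcripts as rows. The authors' values are a score, that is, allele counts scaled to a nearly common total and rounded, as judged from the values; the step that placed reads on alleles and copies is described nowhere in the sources used here. Bowtie 1.1.2 and mm10 are named per the submitters' processing notes, without a role. Rows were joined to GENCODE vM21 (116919 matched) and a gene's rows and alleles were summed. For scores, correlations and folds, cell totals were scaled to their mean. Sequence sharing was counted in words of 50 bases over the GENCODE transcripts. Promoters are RefSeq's, on GRCm38.p6, matched through gene IDs. A row carried no allele information where the squared difference of the alleles, after a factor per cell, summed to under 0.5 of their total. Noise also needed a 129 share of 10% to 90%.

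With 1 sample there was no test; rho is Spearman's over cells, as a description. Members and gene lists were chosen with earlier results of these data known. Genes named with full values are the 10 highest members, the 5 highest and lowest 129 shares, detected Hist2 members and the germ line forms; outside the members, the 10 highest and lowest folds and 5 highest rho with a mean of at least 20, and up to 4 of each list, by fold. Some genes that this rule picks are left out of the text. Other named genes were chosen after their values were seen. The low-marker limit was set after seeing the data, and the alternatives are given in the closing section. No doublet caller was run. Python 3.11.15, numpy 2.4.6, pandas 2.3.3, scipy 1.17.1 and matplotlib 3.10.9 were used, with functions tested on simulated data.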

Additional observations from a re-analysis of the deposited data

How the results depend on the processing

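The detection limit sets how many members count as detected: 48 under a limit of at least 5 in at least 10% of cells, and 65 under any value above 0. Other genes were not counted under these limits. The pooled 129 share was 46.7% without members of shared sequence. Genes at least 2-fold higher in the high cells numbered 17 with the 21 highest cells and 43 with medians in place of means; genes at most 0.5-fold numbered 109 with medians, 118 with a score from the Hist2 genes, and 31 without the 20 cells of low stem cell markers, an alternative chosen after seeing the data. The other alternatives changed no count by over 1.5 times and no value by over the SD of lanes. Over the alternatives without a lane, cells at a score of 2 numbered 32 to 39, the 129 share was 41.5% to 42.0%, and the replication list's fold was 1.05 to 1.06. The correlations of the replication and G2 lists were also read with scores from Hist1h1a, Hist1h1b and Hist1h1d (medians 0.25 and -0.14), also chosen after seeing the data. With a score from the 6 detected genes of unshared sequence the medians were 0.21 and -0.16, a reading likewise chosen after seeing the data. That score put 47 cells at 2 or more. Depth in reads is unknown, so values near 0 limit what can be said of most members, and reads divided among copies limit single genes. No paired analysis was possible because the series holds 1 group.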

Other observations

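Alleles on the same and on opposite chromosomes were set side by side for the unshared H1 genes, a reading chosen after seeing the data. Between Hist1h1a and Hist1h1b the rho over 419 cells was 0.49 for both 129 alleles and 0.62 for both CAST alleles. It was 0.41 for the 129 allele of Hist1h1a with the CAST allele of Hist1h1b, and 0.52 for the reverse pairing, so the same-chromosome and opposite values overlap. Between Hist1h1b and Hist1h1c the same-chromosome values were 0.24 and 0.23, and the opposite ones 0.18 and 0.19. Between Hist1h1a and Hist1h1c they were 0.23 and 0.14 on the same chromosome, against 0.24 and 0.22 on opposite ones.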
